A study of Mus musculus with 18 samples.

Results

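Integrins are the receptors by which cells hold on to the extracellular matrix. Each receptor is a pair of one α and one β subunit, and the α subunit largely sets which matrix protein is bound. The described genes are 10 integrin subunits, 7 α (Itga1, Itga3, Itga5, Itga6, Itga7, Itga9, Itgav) and 3 β (Itgb1, Itgb4, Itgb5), taken by symbol from the 49671 genes of the count table. All 10 passed the filter on low counts in both fits.

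The RNA came from mouse embryonic stem (ES) cells embedded in Matrigel depleted of growth factors, a basement membrane gel rich in laminin and collagen IV, in N2B27 medium. There were 6 groups of 3 samples. Wild-type E14 cells at passage 20 (strain given as 12910la) were cultured for 48 h with the solvent DMSO, with 3 µM CHIR99021 (CH), which blocks Gsk3 and so turns on Wnt/β-catenin signalling, with 2i (3 µM CHIR99021 and 0.4 µM of the Mek inhibitor PD0325901), or with Fgf2 (12 ng/ml) plus Activin A (20 ng/ml), called Fgf2/Activin. Esrrb fl/fl cells at passage 25 (strain given as Acr-EGFP transgenic), which carry a tamoxifen-inducible Cre, were left untreated (Esrrb floxed) or treated with 4OHT for 1 day (Esrrb null) and then grown for 24 h in 3 µM CHIR99021. Esrrb is an orphan nuclear receptor of the naive pluripotency network. No 4OHT-treated cells without the floxed gene were among the samples. Differences due to the deletion and to 4OHT or active Cre thus cannot be told apart. Every line had been kept in 2i with Lif before, both Esrrb groups received CHIR99021, and cells were freed from the gel with accutase and trypsin. The study asked how these conditions bear on the formation of polarised epithelial rosettes. The study's methods speak in general of independent repeats, but the labels do not tie the 3 samples of a group to separate cultures. P-values then measure the spread between these samples, which may be technical.

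Libraries held between 25388139 and 37158661 counts in the wild-type groups and between 19915222 and 20140699 in the Esrrb groups. Replicate 1 stood apart from replicates 2 and 3 in every group, with a chi-square per gene of 11.8 to 65.9 in pairs that held replicate 1 and 1.46 to 8.57 between replicates 2 and 3. All 6 pluripotency markers (Pou5f1, Sox2, Nanog, Zfp42, Utf1, Dppa5a) were above 1 CPM in each group. They also moved with the conditions: 4 rose (Sox2, Nanog, Zfp42, Dppa5a) and 1 fell (Utf1) both in CH against DMSO and in 2i against Fgf2/Activin. Over all genes 7.51% rose and 10.2% fell in the first comparison, and 9.13% and 14.4% in the second. In Esrrb null against floxed cells 1 fell (Sox2, 55.0 ± 10.9 beside 288 ± 7.74 CPM, SD, n = 3), beside 3.87% of all genes. All 6 markers had an adjusted p under 0.01 in the lower direction, as did 2957 of the 14893 genes tested. The part of these markers in the integrin results was not tested. Primitive endoderm markers summed to 8.98 to 10.2 CPM in DMSO, 5.83 to 6.49 in Fgf2/Activin, 2.68 to 3.65 in CH and 1.58 to 1.89 in 2i. Their sum was 2.065 to 3.46 CPM in Esrrb floxed and 5.08 to 6.11 in Esrrb null cells. Of the 6 tested, 2 fell in CH against DMSO and 2 in 2i against Fgf2/Activin, beside 10.2% and 14.4% of all genes. In Esrrb null cells 2 of 4 tested rose and 1 fell, beside 12.8% and 3.87%. Fibroblast markers summed to 17.2 to 50.7 CPM in DMSO, 14.7 to 27.6 in Fgf2/Activin, 5.72 to 7.77 in CH and 2.40 to 2.63 in 2i. They summed to 17.8 to 26.0 CPM in Esrrb floxed and 9.45 to 12.3 in Esrrb null cells. Postn was at 0 in all groups but CH and Esrrb null cells. In Esrrb floxed cells the sum was mostly Thy1 (22.2 ± 4.18 CPM, SD, n = 3), which was 6.19 ± 2.33 in null cells. Col1a2 went the other way, 0.203 ± 0.134 CPM in floxed and 2.71 ± 0.469 in null cells, as did Col1a1, Col3a1 and Dcn. Of 3 fibroblast markers tested there, 2 rose and 1 fell, beside 12.8% and 3.87% of all genes. Esrrb had 1211, 1333 and 1250 counts in the Esrrb null samples and 2680, 2146 and 2109 in the floxed samples, a log2 fold change of -0.99 that stayed just under the minimum for a call. The targeted transcript was thus lower in the treated samples but not absent. Which exons the deletion removes was not analysed here.

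In background, Itga3, Itga6 and Itga7 pair with Itgb1 to form laminin receptors, and Itga6 also pairs with Itgb4, a β subunit that is linked to intermediate filaments. Itga5 with Itgb1 is the classical fibronectin receptor, and Itga1 with Itgb1 binds collagens, collagen IV among them. Itgav pairs with Itgb1, Itgb5 and other β subunits to bind vitronectin and fibronectin, and Itga9 with Itgb1 binds tenascin-C. The laminin receptors of the Itgb1 group are known as the contacts through which the early epiblast reads its basement membrane.

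The promoters of the α subunits called in CH against DMSO, Itga3 and Itga1, and of their common partner Itgb1 are shown because these genes differed in response. The sequences are RefSeq windows of 300 bases (GRCm38.p6, 250 before to 50 after the start), on the strand of the gene, with the GC box GGGCGG in capitals. Itga3 lies on chr11:95076665-95076964 (minus strand), Itga1 on chr13:115101915-115102214 (minus strand) and Itgb1 on chr8:128685404-128685703 (plus strand).
Itga3: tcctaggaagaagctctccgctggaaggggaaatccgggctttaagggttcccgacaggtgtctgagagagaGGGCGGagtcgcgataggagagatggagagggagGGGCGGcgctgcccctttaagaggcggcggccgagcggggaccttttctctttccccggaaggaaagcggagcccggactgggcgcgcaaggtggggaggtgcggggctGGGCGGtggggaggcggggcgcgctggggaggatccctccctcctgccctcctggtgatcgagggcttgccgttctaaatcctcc
Itga1: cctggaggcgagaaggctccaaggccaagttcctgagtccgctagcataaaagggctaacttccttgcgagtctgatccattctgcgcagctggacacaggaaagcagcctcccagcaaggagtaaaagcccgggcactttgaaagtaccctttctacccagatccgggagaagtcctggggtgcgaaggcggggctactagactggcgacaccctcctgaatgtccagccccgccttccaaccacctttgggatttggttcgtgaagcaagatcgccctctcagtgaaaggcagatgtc
Itgb1: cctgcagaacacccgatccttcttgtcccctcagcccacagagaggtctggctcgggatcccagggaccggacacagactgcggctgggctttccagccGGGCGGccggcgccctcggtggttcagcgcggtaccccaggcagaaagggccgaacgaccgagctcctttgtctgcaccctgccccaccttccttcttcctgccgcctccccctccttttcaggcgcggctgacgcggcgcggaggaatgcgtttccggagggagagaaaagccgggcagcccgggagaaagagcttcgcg

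The Itga3 window had 66.7% G and C, 24 CpG and 3 GC boxes, and that of Itgb1 67.3%, 27 CpG and 1 GC box. The Itga1 window had 56.7%, 12 CpG and no GC box. RefSeq windows were found for 7 of the 10 genes, 8 windows in all because Itga3 had 2, and none were matched for Itga6, Itga7 and Itgb4. The Itga9 window (chr9:118711442-118711741, plus strand) lies inside the gene, which runs from 118606690 to 118901003. The second Itga3 window (chr11:95069149-95069448) also lies inside its gene, which runs from 95044474 to 95076801. No window at the outer start of Itga9 was examined. On both strands, GGGCGG occurred in 6 of the 8 windows and in 35.7% of the 32851 windows of the table. The Esrrb site TCAAGGTCA occurred in 0 of the 8 and in 0.423% of all windows, and the TCF/LEF site CTTTGAT in 0 of the 8 and in 3.73% of all. None of these motifs overlaps another in its letters, and a match describes letters only.

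Levels are given in CPM, counts scaled to library size over all 18 samples, and per kilobase of exon where genes are compared. A gene was called when it changed more than 2-fold at an adjusted p under 0.01 over all genes tested. In RNA of a whole culture, fewer cells of a type and less RNA per cell cannot be told apart. Wild-type comparisons share groups: DMSO, CH, 2i and Fgf2/Activin each enter 2 of them.

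**Figure D1:**
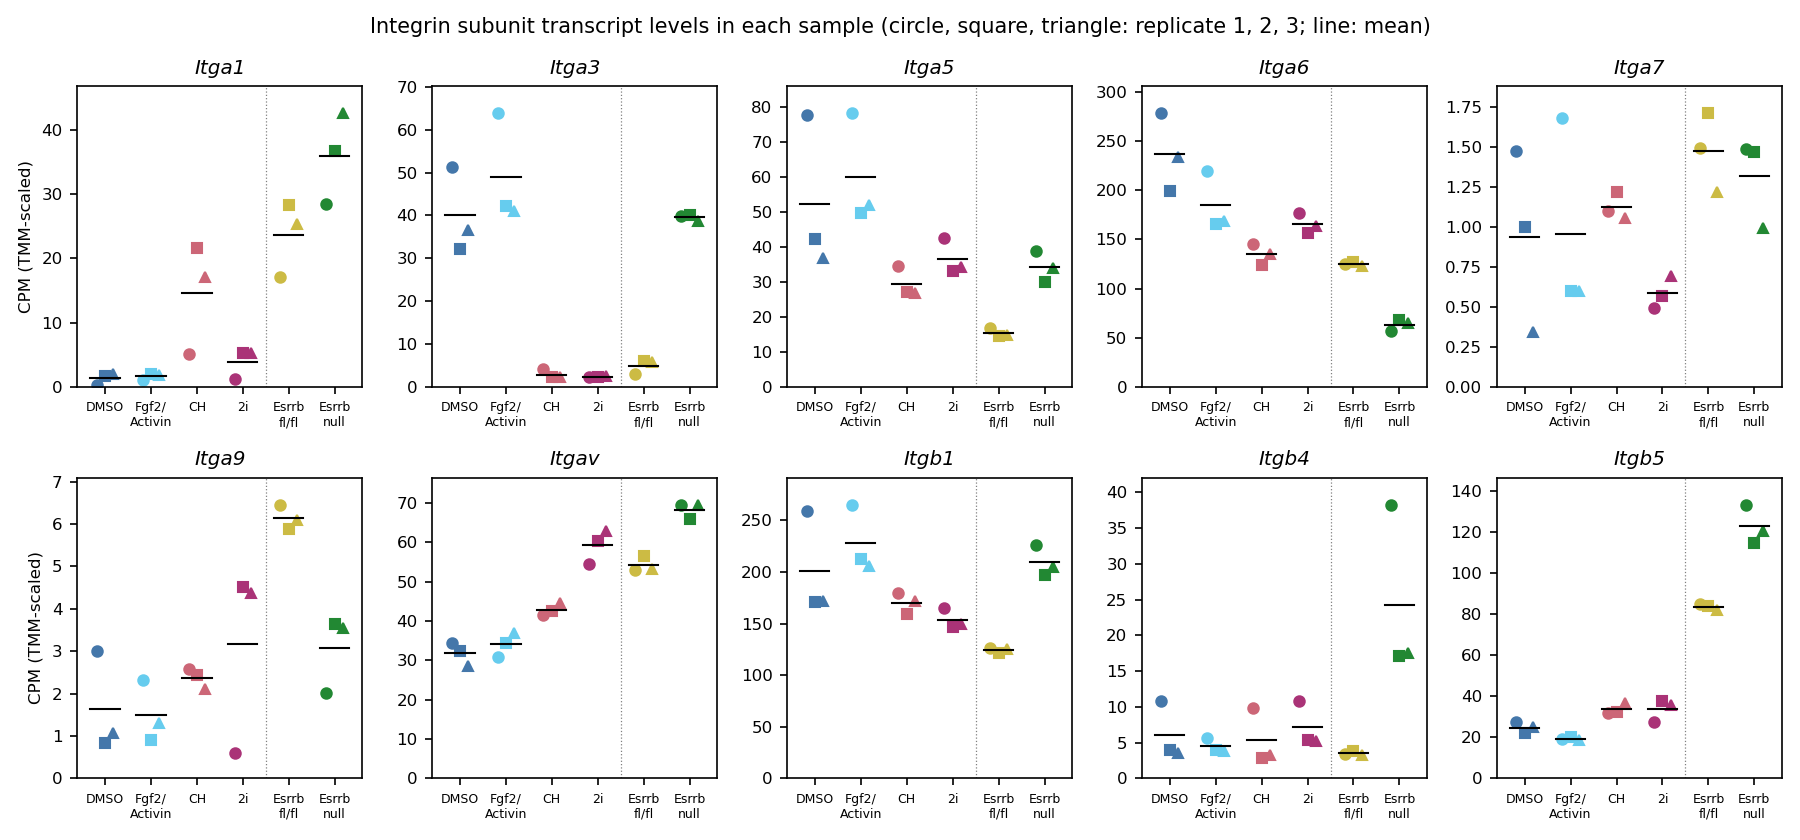
Level of each integrin subunit in CPM (linear axes from 0, one scale per gene) in the 18 samples, with circles, squares and triangles for replicates 1, 2 and 3, a line at the group mean and a dotted line between the wild-type and Esrrb fl/fl cells. Itga3 lay between 32.2 and 63.8 CPM in DMSO and Fgf2/Activin, at or below 4.10 in CH and 2i, and between 38.8 and 40.0 in Esrrb null cells.

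Itga3, the α subunit of a laminin receptor, separated the cultures with and without CHIR99021. In DMSO its level was 51.2, 32.2 and 36.7 CPM in replicates 1 to 3, and in Fgf2/Activin 63.8, 42.1 and 41.1. In CH it was 4.10, 2.27 and 2.23 CPM, and in 2i 2.26, 2.27 and 2.46. The groups with and without CHIR99021 did not overlap. Itga3 fell by 3.81 on the log2 scale in CH against DMSO (SE 0.28, adjusted p = 2.35e-06), a level 14.1-fold lower. In 2i against Fgf2/Activin it fell by 4.40 (SE 0.29, adjusted p = 5.62e-07), which is 21.1-fold lower.

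In the Esrrb fl/fl cells, all grown in CHIR99021, Itga3 was 2.89, 5.94 and 5.88 CPM in the floxed and 39.8, 40.0 and 38.8 in the null samples. The null samples were all higher and lay close together. Itga3 rose by 2.99 (SE 0.20, adjusted p = 9.48e-06), 7.95-fold. The mean level of Esrrb null cells was 39.5 ± 0.648 CPM (SD, n = 3), beside 40.0 ± 9.97 in DMSO. The cell lines differ in passage and time in culture, so these 2 levels are set side by side without a test.

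Over the 12 wild-type samples, the genes whose pattern was most like that of Itga3 were Rgl3 and Tmcc3, with root mean square differences of 0.222 and 0.258 in centred log2(CPM + 1), among 11200 genes averaging 100 counts or more.

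Itga1, the α subunit of a collagen receptor, moved the other way in CH. Its level was 0.295, 1.72 and 1.99 CPM in DMSO and 1.02, 2.00 and 1.86 in Fgf2/Activin. It was 5.10, 21.5 and 17.0 CPM in CH and 1.23, 5.26 and 5.20 in 2i. Every CH sample was above every DMSO sample, whereas 2i and Fgf2/Activin overlapped, and replicate 1 was the lowest of each group. Itga1 rose by 3.45 in CH against DMSO (SE 0.76, adjusted p = 0.00367), 10.9-fold. That call was lost without CH replicate 2 (adjusted p = 0.0139), CH replicate 3 (0.0112) or DMSO replicate 2 (0.0123) and in a fit of those 6 samples alone (0.0149), while with samples left out the log2 fold change stayed between 2.95 and 3.86.

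For 2i against Fgf2/Activin the log2 fold change of Itga1 was 1.26 (SE 0.72, adjusted p = 0.166), not called. Blocking on the replicate number called it, at 1.13 (adjusted p = 0.00275). For 2i against CH it was -1.90 (SE 0.69, adjusted p = 0.146), not called, and -1.91 with the block (adjusted p = 2.96e-04), called. In the Esrrb fl/fl cells, Itga1 was 17.1, 28.3 and 25.4 CPM in the floxed and 28.5, 36.7 and 42.6 in the null samples. These groups did not overlap, though the highest floxed and the lowest null sample nearly met, and the log2 fold change of 0.59 (SE 0.19, adjusted p = 0.0260) was not called.

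Of the mesendoderm markers T, Mixl1, Eomes, Foxa2, Cer1 and Gsc, 4 could be tested. In CH against DMSO 3 rose and 1 (Eomes) fell, beside 7.51% and 10.2% of all genes. The summed level of all 6 was 448 to 679 CPM in CH, 84.2 to 119 in 2i, 9.01 to 14.1 in DMSO and 11.7 to 17.9 in Fgf2/Activin, with Cer1 at 0 in 2i and Fgf2/Activin. It was 332 to 486 CPM in Esrrb null and 51.3 to 74.6 in floxed cells. In CH the sum was mostly T (540 ± 119 CPM, SD, n = 3), which rose against DMSO as Itga1 did. Eomes was 2.74 ± 1.54 CPM in CH and 11.4 ± 2.66 in DMSO. T was also higher in 2i (92.1 ± 20.0 CPM) than in Fgf2/Activin (0.582 ± 0.324). It was higher in Esrrb null (398 ± 77.5) than in floxed cells (42.0 ± 5.70) as well. Itga1 was also higher in both of these last comparisons, by 1.26 and 0.59 on the log2 scale. It was called in neither by the main fit. Of the trophectoderm list, 2 of 3 tested genes rose in CH against DMSO, beside 7.51% of all genes. Its sum was 71.3 to 120 CPM in CH and 33.1 to 59.2 in 2i. It was 11.2 to 32.8 CPM in DMSO and 8.36 to 12.3 in Fgf2/Activin, with none of its 6 genes at 0 in any of these. In Esrrb null against floxed cells 2 of 4 tested genes of this list rose, beside 12.8% of all genes. The sum was 28.5 to 35.7 CPM in null and 18.7 to 29.8 in floxed cells. In CH the sum was mostly Cdx2 (46.0 to 92.9 CPM) and Tfap2c (24.2 to 25.6). Krt7, of the same list, went the other way without overlap, 0.243 to 2.76 CPM in CH and 8.16 to 20.8 in DMSO. The part of both lists in the Itga1 result was not tested. The genes most like Itga1 over the 12 wild-type samples were Nlrc4 and Ripk3, with root mean square differences of 0.417 and 0.446. About 3.68% of the exon bases of Itga1 are shared with Gm49395, so part of its reads is uncertain.

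**Figure D2:**
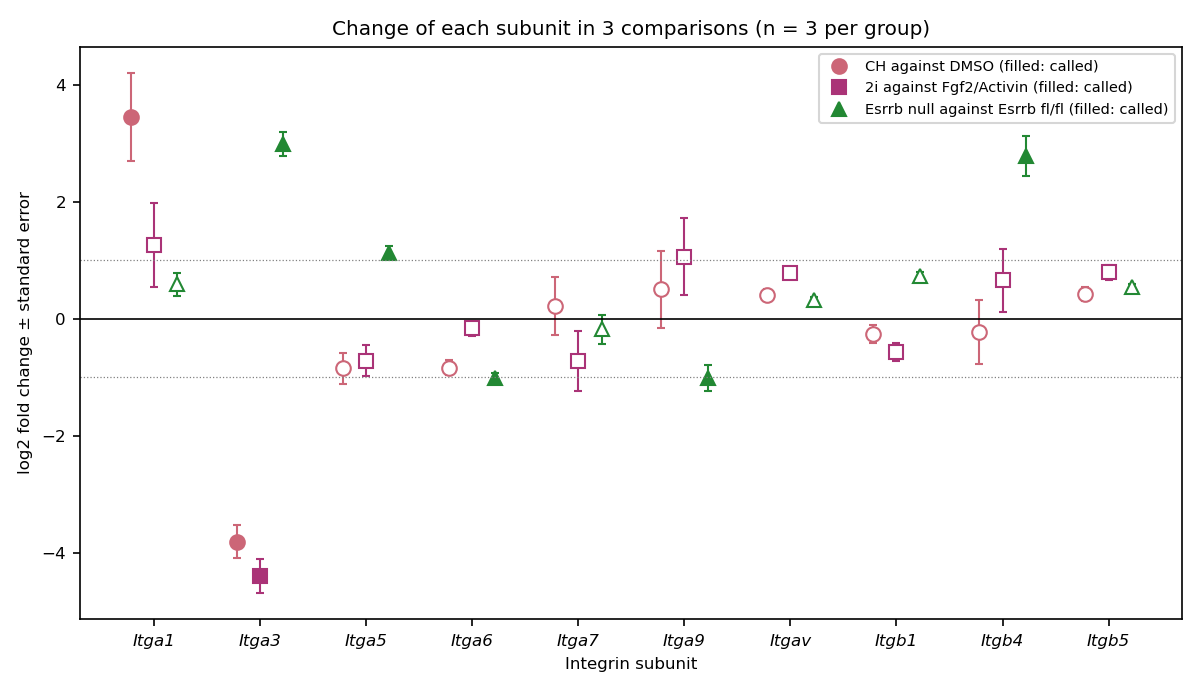
The log2 fold change (± SE, 3 samples per group) of each subunit in CH against DMSO (circles), 2i against Fgf2/Activin (squares) and Esrrb null against floxed cells (triangles). Filled symbols were called and dotted lines mark a 2-fold change. Itga3 was at -3.81, -4.40 and 2.99, and Itga6 was below 0 in all 3.

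Counted over the 10 subunits in CH against DMSO, 1 rose (Itga1), 1 fell (Itga3) and 8 were not called, beside 17.7% of the 16413 genes tested, 7.51% higher and 10.2% lower. The groups did not overlap for 6 of the 10, beside 49.7% of all genes. The median log2 fold change of the subunits was 0.00, as over all genes. In 2i against Fgf2/Activin, 1 of 10 was called (Itga3, lower), beside 23.5% of all genes, 9.13% higher and 14.4% lower, and 5 of 10 did not overlap, beside 63.1%. The median of the subunits was 0.25 there, beside 0.00 over all genes. In Esrrb null against floxed cells, 3 rose (Itga3, Itga5, Itgb4), 2 fell (Itga6, Itga9) and 5 were not called, beside 16.7% of the 14893 genes tested, 12.8% higher and 3.87% lower. There 7 subunits lay wholly higher and 2 wholly lower, beside 65.9% of all genes in either direction, and the median was 0.56 beside 0.00 over all genes.

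Itga6, the α subunit of 2 laminin receptors, was the most abundant α transcript per length in each wild-type group. Its level was 278, 200 and 234 CPM in DMSO and 145, 124 and 135 in CH, with no overlap. The log2 fold change of -0.83 (SE 0.14, adjusted p = 5.45e-04) passed the p threshold but not the 2-fold minimum. In Fgf2/Activin it was 220, 165 and 169 CPM, overlapping the 177, 157 and 164 of 2i, and the log2 fold change of -0.16 (SE 0.13, adjusted p = 0.337) was not called.

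In the Esrrb fl/fl cells Itga6 was 125, 127 and 123 CPM in the floxed and 56.4, 68.4 and 64.6 in the null samples. It fell by 1.00 (SE 0.07, adjusted p = 1.08e-05), 2.01-fold, a value at the edge of the minimum fold. Without Esrrb null replicate 1 the log2 fold change was -0.93 and the call was lost by fold alone. Itga6 was thus lower in CH than in DMSO, and lower in Esrrb null than in floxed cells, whereas Itga3 was lower in the first comparison and higher in the second. About 7.56% of an Itga6 transcript matches Gm29397 at 95% identity or more, so part of its reads is uncertain.

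Itga7, the third α subunit of laminin receptors, had between 9 and 56 counts in any sample and means of 0.585 to 1.48 CPM. It was called in none of the 5 comparisons, and at this depth a 2-fold difference in Itga7 was smaller than the spread among DMSO samples, 0.345 to 1.47 CPM. Itgb4, the partner of Itga6 alone, was 10.8, 3.99 and 3.56 CPM in DMSO, 5.71, 3.96 and 3.76 in Fgf2/Activin, 9.78, 2.83 and 3.33 in CH, and 10.8, 5.32 and 5.23 in 2i. Replicate 1 was the highest of each of these groups, and the groups overlapped.

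Itgb4 was 3.36, 3.88 and 3.25 CPM in Esrrb floxed and 38.3, 17.2 and 17.5 in Esrrb null samples. All null samples were higher, with replicate 1 again above the others. Itgb4 rose by 2.78 (SE 0.34, adjusted p = 1.71e-04), 6.88-fold, and by 2.29 without Esrrb null replicate 1. It shares 7.66% of its exon bases with B230344G16Rik on the opposite strand, and counting did not use strand. Itga6 and Itgb4, which form one receptor, moved in opposite directions in Esrrb null cells.

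Itga5, the fibronectin receptor subunit, was 77.8, 42.3 and 36.9 CPM in DMSO and 78.3, 49.8 and 51.9 in Fgf2/Activin. It was 34.4, 27.0 and 26.9 CPM in CH and 42.5, 33.2 and 34.3 in 2i. CH lay below DMSO and 2i below Fgf2/Activin without overlap, but neither the log2 fold change of -0.85 (SE 0.27, adjusted p = 0.0254) nor that of -0.72 (SE 0.27, adjusted p = 0.0424) was called. In the Esrrb fl/fl cells it was 16.7, 14.7 and 14.9 CPM in the floxed and 38.8, 29.9 and 34.0 in the null samples, with no overlap. Itga5 rose by 1.13 there (SE 0.11, adjusted p = 6.06e-05), 2.19-fold, and was called without each of the 6 samples in turn.

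Itgav, the vitronectin and fibronectin receptor subunit, was 34.4, 32.3 and 28.6 CPM in DMSO, 30.9, 34.5 and 37.0 in Fgf2/Activin, 41.4, 42.6 and 44.6 in CH, and 54.3, 60.2 and 63.0 in 2i. Its level was ordered 2i, CH and then the 2 groups without CHIR99021, which overlapped each other. The log2 fold change of 0.41 in CH against DMSO (SE 0.09, adjusted p = 0.00472) and of 0.79 in 2i against Fgf2/Activin (SE 0.09, adjusted p = 4.42e-05) passed the p threshold but not the 2-fold minimum. Itgav was 53.0, 56.6 and 53.2 CPM in Esrrb floxed and 69.5, 65.9 and 69.5 in Esrrb null samples, a log2 fold change of 0.32 (SE 0.06, adjusted p = 0.00128) that was also under the minimum. Of its exon bases, 5.90% are shared with Gm13684 on the opposite strand.

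Itgb5, a partner of Itgav, was 27.3, 22 and 24.8 CPM in DMSO and 31.7, 32.5 and 36.5 in CH. In Fgf2/Activin it was 19.0, 20.0 and 18.8 CPM and in 2i 27.4, 37.6 and 35.9. The groups with CHIR99021 were higher in both pairs without overlap. The log2 fold change was 0.43 (SE 0.13, adjusted p = 0.0183) in CH against DMSO and 0.80 (SE 0.13, adjusted p = 3.27e-04) in 2i against Fgf2/Activin, and neither was called. Itgb5 was 133, 115 and 120 CPM in the Esrrb null and 85.0, 84.0 and 82.0 in the floxed samples, above each wild-type group. The log2 fold change of 0.54 (SE 0.06, adjusted p = 1.62e-04) was under the 2-fold minimum. Of an Itgb5 transcript, 10.5% matches Gm38317 at 95% identity or more, so part of its reads is uncertain.

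Itga9, the tenascin receptor subunit, was 3.00, 0.842 and 1.07 CPM in DMSO, 2.31, 0.898 and 1.30 in Fgf2/Activin, 2.58, 2.44 and 2.11 in CH, and 0.60, 4.51 and 4.38 in 2i. Replicate 1 was the highest without CHIR99021 and the lowest in 2i, the groups of each pair overlapped and no wild-type comparison was called. Without replicate 1 of each group, Itga9 was called higher in CH (1.25, adjusted p = 4.43e-04) and in 2i (2.02, adjusted p = 8.37e-07). In the Esrrb fl/fl cells it was 6.45, 5.89 and 6.09 CPM in the floxed and 2.01, 3.65 and 3.56 in the null samples. Itga9 fell by 1.01 (SE 0.21, adjusted p = 0.00350), again at the edge of the minimum fold, and the call was lost without Esrrb null replicate 1 or without any one floxed sample.

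Itgb1, the β subunit shared by most of these receptors, was 259, 171 and 172 CPM in DMSO and 180, 159 and 172 in CH, which overlapped (log2 fold change -0.25, SE 0.15, adjusted p = 0.209). It was 265, 213 and 206 CPM in Fgf2/Activin and 165, 147 and 149 in 2i, with no overlap. The log2 fold change of -0.57 there (SE 0.15, adjusted p = 0.00878) was under the 2-fold minimum. Among the Esrrb samples, Itgb1 was 127, 121 and 125 CPM in the floxed and 226, 197 and 205 in the null samples, a log2 fold change of 0.74 (SE 0.06, adjusted p = 2.31e-05), also under the minimum. Itgb1 was the most abundant of the 10 transcripts per kilobase of all exons in each of the 6 groups, from 30.4 CPM per kilobase in Esrrb floxed to 55.9 in Fgf2/Activin cells. Per kilobase of the longest coding transcript, Itga6 was above it in DMSO, 55.1 beside 52.6.

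Adding PD0325901 to CHIR99021 (2i against CH) called 0 of the 10 subunits by edgeR, beside 1.99% of all genes. DESeq2 also called 0, and 3 had an unadjusted p under 0.05 (Itga1, Itga6, Itgav). Itgav had the smallest of these, with a log2 fold change of 0.47 (SE 0.09, adjusted p = 0.0128). Adding Fgf2 and Activin A (Fgf2/Activin against DMSO) called 0 of 10 by edgeR, beside 1.25% of all genes, and 0 by DESeq2. There 2 had an unadjusted p under 0.05, Itga6 at -0.37 (SE 0.13, adjusted p = 0.173) and Itgb5 at -0.37 (SE 0.13, adjusted p = 0.148).

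To compare α subunits with their common partner inside a library, the log2 ratio of each α count to the Itgb1 count was taken. It was compared between the 6 wild-type samples with CHIR99021 (CH, 2i) and the 6 without, by an exact two-sided permutation test whose smallest p is 0.00216. These 6 come from 2 culture conditions each. Ratios were tested for 7 α subunits, and p-values are not adjusted. The Itga3 to Itgb1 ratio ranged from -6.25 to -5.45 with CHIR99021 and from -2.41 to -2.05 without, a difference of -3.71 (exact p = 0.00216). That of Itgav ranged from -2.12 to -1.25 with and from -3.10 to -2.40 without, a difference of 1.00 (exact p = 0.00216). It was 0.64 between CH and DMSO and 1.35 between 2i and Fgf2/Activin.

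The Itga1 ratio was higher by 2.70 with CHIR99021 (exact p = 0.0108), with overlap. The Itga5 ratio differed by -0.34 (exact p = 0.0411), a p that passed 0.05 no longer when any one of 7 of the 12 samples was left out. The differences for Itga6 (-0.09, exact p = 0.543), Itga7 (0.36, exact p = 0.301) and Itga9 (1.12, exact p = 0.0519) did not pass. The Itga6 ratio was lower in CH than in DMSO by 0.60 and higher in 2i than in Fgf2/Activin by 0.41, so the pooled value averages opposite differences.

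In Esrrb null against floxed cells, 3 samples against 3, the smallest exact p is 0.1. The Itga3 ratio was -2.40 ± 0.10 in the null and -4.73 ± 0.62 in the floxed cells (SD, n = 3), a difference of 2.33. The Itga6 ratio was -1.73 ± 0.24 in the null and 0.01 ± 0.05 in the floxed cells, a difference of -1.74. Itga9 differed by -1.79, Itga7 by -0.92, Itgav by -0.42 and Itga5 by 0.39, each with an exact p of 0.1 and no overlap of the groups. Itga1 differed by -0.13 (exact p = 0.6). Itgb1, the denominator, was itself higher by 0.74 in Esrrb null cells, which lowers each ratio. The log2 fold change of Itga7 alone was -0.18 (adjusted p = 0.557), not called. Itgav counts were thus higher in Esrrb null cells while their ratio to Itgb1 was lower.

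**Figure D3:**
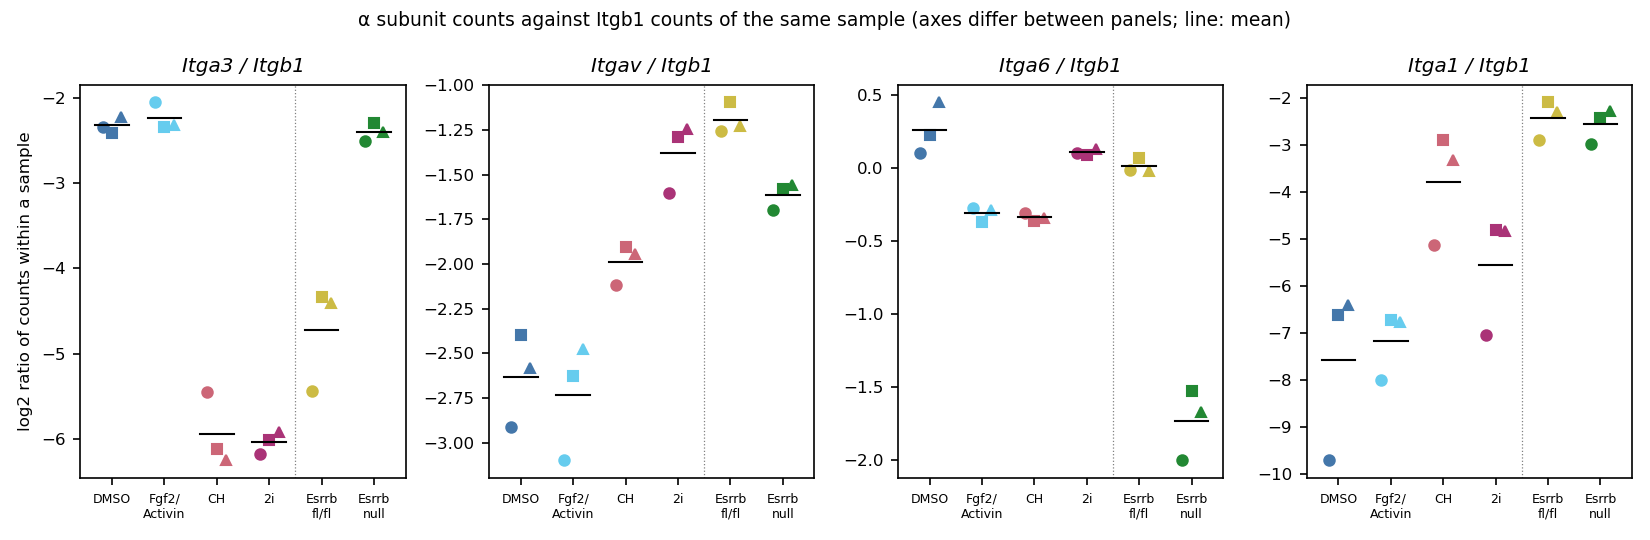
Log2 ratio of the counts of Itga3, Itgav, Itga6 and Itga1 to those of Itgb1 in each sample, with circles, squares and triangles for replicates 1, 2 and 3 and lines at group means (each panel has its own axis, which does not start at 0). Itga3 lay near -2 in DMSO, Fgf2/Activin and Esrrb null samples and below -4 in all others, and Itga6 was lowest, at -2.0 to -1.52, in Esrrb null samples.

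Per kilobase of exon, the make-up of the 7 α transcripts differed between the groups. In DMSO, Itga6 held 56.1% ± 4.36 of the summed α level, Itga5 21.9% ± 4.55, Itga3 14.8% ± 0.498 and Itgav 6.40% ± 1.11 (SD, n = 3). In Fgf2/Activin the shares were 45.9% ± 1.25, 26.9% ± 1.75, 19.0% ± 1.27 and 7.33% ± 1.81. In CH, Itga6 held 56.0% ± 1.33 and Itga5 22.4% ± 2.01, both within the range of the DMSO samples, while Itga3 held 1.86% ± 0.579 and Itgav 15.0% ± 1.24. In 2i these last shares were 1.26% ± 0.0846 for Itga3 and 17.0% ± 1.83 for Itgav. The Itga3 and Itgav shares of the groups with CHIR99021 did not overlap those of the groups without it.

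In Esrrb floxed cells Itga6 held 55.2% ± 1.03, Itgav 20.1% ± 0.280, Itga5 12.4% ± 1.17 and Itga3 3.40% ± 1.17. In Esrrb null cells Itga6 held 23.6% ± 2.32, Itga5 23.4% ± 3.06, Itga3 23.3% ± 0.704 and Itgav 21.4% ± 0.519. The levels behind these shares were 7.00 ± 0.678, 6.94 ± 0.910, 6.92 ± 0.114 and 6.36 ± 0.195 CPM per kilobase, so that Itga6, Itga5 and Itga3 differed by less than their spread. Itga1 held 0.170% ± 0.124 in DMSO, 3.01% ± 1.86 in CH, 5.02% ± 1.15 in Esrrb floxed and 6.49% ± 1.21 in Esrrb null cells. With the length of the longest coding transcript in place of all exons, Itga6 held 68.9% in DMSO and 33.0% in Esrrb null cells, and Itga3 10.2% and 18.4%.

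**Figure D4:**
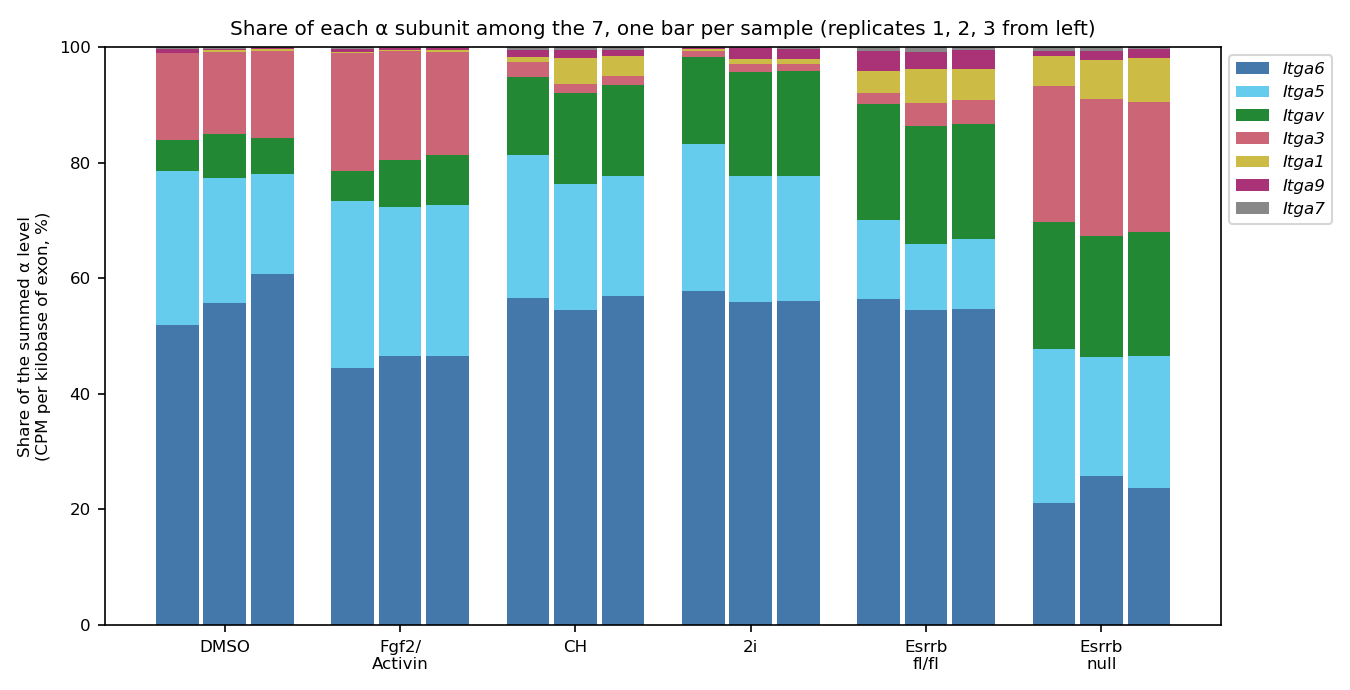
Share of each α subunit in the summed level of the 7 (CPM per kilobase of exon, in percent), one stacked bar per sample, replicates 1 to 3 from the left in each group. The Itga3 segment was 14.2% to 20.4% in DMSO and Fgf2/Activin, 1.17% to 2.53% in CH and 2i and 22.5% to 23.8% in Esrrb null samples, where the Itga6 segment was 21.2% to 25.8%.

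Of the other 16 integrin subunits, 11 could be tested in the wild-type and 8 in the Esrrb cells. Itgal, a leukocyte integrin α subunit, rose by 2.05 in CH against DMSO (SE 0.25, adjusted p = 7.23e-05) and by 2.42 in 2i against Fgf2/Activin (SE 0.25, adjusted p = 1.44e-05), and fell by 1.73 in Esrrb null cells (SE 0.18, adjusted p = 6.72e-05). Itgb7, a β subunit of lymphocyte integrins, rose by 1.47 and 1.31 and fell by 1.04 in the same comparisons. Both were low, at most 6.56 ± 0.719 CPM for Itgal and 14.9 ± 1.16 for Itgb7, in Esrrb floxed cells (SD, n = 3).

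In CH against DMSO, 2 of the 11 rose (Itgal, Itgb7) and 2 fell: Itga4, at -1.61, and Itgb3, a partner of Itgav, at -1.55. Itga4 and Itgb3 were low, at 1.70 ± 0.819 and 1.14 ± 0.181 CPM in DMSO (SD, n = 3). Over all genes 7.51% rose and 10.2% fell. In 2i against Fgf2/Activin, 2 rose and 2 fell, and those that fell were below 1 CPM in both groups, beside 9.13% and 14.4% of all genes. Itgb3 also fell in Fgf2/Activin against DMSO, at -1.35. In Esrrb null cells 1 of 8 rose, Itga2b (the platelet integrin α subunit), by 1.17, and 2 fell, beside 12.8% and 3.87% of all genes. Itga2b was low, at 0.525 ± 0.101 CPM in the floxed and 1.21 ± 0.288 in the null samples.

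Of the 22 listed matrix ligands of these receptors, 18 were tested. In CH against DMSO 5 rose, 2 fell and 11 were not called, beside 7.51% of all genes higher and 10.2% lower. The largest rises were Lama1, a laminin α chain, by 2.67 (SE 0.37, adjusted p = 1.91e-04), and Nid1, which links laminin to collagen IV, by 2.58 (SE 0.22, adjusted p = 6.35e-06). The collagen IV chains Col4a1 and Col4a2 fell by 2.59 and 1.86. In 2i against Fgf2/Activin 6 rose and 7 fell, beside 9.13% and 14.4% of all genes. The largest rises were Lama1 at 4.44 and Nid1 at 4.06, and the largest falls the laminin chain Lama4 at -3.26 and Col4a1 at -3.06. Lama4 was low, at 0.129 ± 0.0111 CPM in 2i and 1.25 ± 0.405 in Fgf2/Activin (SD, n = 3). The median over the ligands was 0.23 in CH against DMSO and 0.07 in 2i against Fgf2/Activin, beside 0.00 over all genes in both.

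In Esrrb null cells 7 of 19 ligands tested rose and 2 fell, beside 12.8% and 3.87% of all genes, with a median of 0.74 beside 0.00 over all genes. Col4a2 rose by 3.29 (SE 0.21, adjusted p = 6.77e-06) and the laminin chain Lamb3 by 2.84 (SE 0.24, adjusted p = 2.42e-05). Spp1 (osteopontin) fell by 1.41 and Nid1 by 1.01. Col4a2, Nid1 and Itga3 were each called in opposite directions in CH against DMSO and in Esrrb null against floxed cells. So were others of the listed genes, such as Itgal, Itgb7 and the partner Fermt1. The share of all genes that reversed in this way was not counted. In 2i against CH, Nid1 rose by 1.56 and Col4a2 fell by 1.05.

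Of the 27 cytoplasmic and membrane partners, 25 were tested. Of these, 4 were called in CH against DMSO, beside 17.7% of all genes, 7 in 2i against Fgf2/Activin, beside 23.5%, and 4 in Esrrb null cells, beside 16.7%, so the counts were near those of all genes. In CH against DMSO 1 rose, Tns3, a tensin, by 1.52 (SE 0.21, adjusted p = 1.56e-04), and 3 fell. The largest falls were in Fermt1 (kindlin-1, an activator of integrins), at -3.63 (SE 0.28, adjusted p = 2.76e-06), and in the adaptor Bcar1, at -2.69 (SE 0.10, adjusted p = 1.95e-08). In 2i against Fgf2/Activin 2 rose, the tetraspanin Cd9 by 2.07 and Tns3 by 1.75, and 5 fell, led by Fermt1 at -5.72 and Tns2 at -3.13. Esrrb null cells had 4 higher and none lower, with Parva, an actin-binding partner of the kinase Ilk, at 2.96 (SE 0.15, adjusted p = 2.91e-06) and Fermt1 at 2.47 (SE 0.29, adjusted p = 1.49e-04). Ilk itself, also on the list, had at most 10 counts in any sample, too few to be tested. In 2i against CH, Fermt1 fell by 1.84 and the focal adhesion protein Zyx by 1.80. The partners' medians were -0.15 in CH, -0.04 in 2i against Fgf2/Activin and 0.30 in Esrrb null cells, beside 0.00 over all genes.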

How the data were processed

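Poly(A) RNA of 18 samples was sequenced. The deposited table holds raw counts per gene, which the authors made with TopHat2 on mm10 and HTSeq on Ensembl GRCm38 without strand. The annotation release is not given in the sources used here. Of 49671 gene IDs, 49412 matched GENCODE M21, which gave positions and lengths, and 31411 had a count. The integrin subunits and gene lists were chosen with earlier results of these data known. Named genes were all 10 subunits, other subunits called with a mean of at least 1 CPM in a group, the 2 largest changes per direction among called ligands and partners, and the 2 genes most like each subunit called in CH.

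Counts were tested with edgeR 4.0.16 (R 4.3.3; TMM, filterByExpr, quasi-likelihood, Benjamini-Hochberg over all genes), the 12 wild-type and 6 Esrrb samples in separate fits. SE is the log2 fold change over the root of F. The fit was tested on simulated data. Ratios used counts + 0.5. Alternatives were DESeq2 1.42.0, other filters, leaving out samples and a block on replicate number. Same-numbered samples deviated together in every comparison (correlations 0.39 to 0.844, at least 100 mean counts per gene), which is where the pairing comes from. Pairs of different numbers that held replicate 1 gave -0.807 to -0.438, and pairs of replicates 2 and 3 gave 0.339 to 0.744, so the correlations largely follow replicate 1 standing apart. One marker list is not reported here.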

Additional observations from a re-analysis of the deposited data

Results flagged for a closer look

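The log2 ratio of Itga6 to Itgb1 counts differed between the culture pairs. It was lower in CH than in DMSO by 0.60 (-0.597), with all 3 CH samples between -0.36 and -0.31 and the DMSO samples between 0.10 and 0.45. It was higher in 2i than in Fgf2/Activin by 0.414, with all 3 2i samples between 0.09 and 0.13 and the Fgf2/Activin samples between -0.37 and -0.27. The groups of each pair did not overlap, and the 2 pairs differed in opposite directions. The difference between the pairs itself was not tested. In CH against DMSO the log2 fold change was -0.83 for Itga6 and -0.25 for Itgb1. In 2i against Fgf2/Activin it was -0.16 for Itga6 and -0.57 for Itgb1, so there the ratio mostly followed Itgb1.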

How the results depend on the processing

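Itga3 was called in the same direction in its 3 comparisons under every alternative run, and the Itga3, Itgav and Itga1 ratios kept their direction and side of the threshold in each alternative that kept at least 8 samples. The pairs alone, 3 against 3, cannot go below an exact p of 0.1. With the replicate block, Itga1 gained a call in 2i against Fgf2/Activin (2 subunits called) and in 2i against CH (1), and no other call of a subunit changed. The block gave 672 genes called in 2i against CH (326 without it) and 424 in Fgf2/Activin against DMSO (205), DESeq2 gave 597 and 374, fits of the 6 samples alone 100 and 87, and leaving out samples 144 to 768 and 112 to 499. Genes with at least 10 counts in every sample gave 1755 calls in CH against DMSO (2907) and 2332 in 2i against Fgf2/Activin (3857), from fewer genes tested, and 3 of 10 subunits in Esrrb null cells (5). No minimum fold gave 4750, 6193 and 6621 genes (2485 in Esrrb null cells) and 4, 4 and 8 subunits. The fit of 6 samples called 1 subunit in CH against DMSO, without Itga1. Leaving out samples gave 1 to 3 subunits in CH against DMSO, 1 to 3 in 2i against Fgf2/Activin, 0 to 1 in 2i against CH and 3 to 5 in Esrrb null cells. Leaving out replicate 1 of each group was chosen after seeing the data, is included in these ranges and sets several of their upper ends. It gave 768 genes in 2i against CH and 499 in Fgf2/Activin against DMSO. Single samples left out gave 144 to 275 and 112 to 171. It also gave the 3 subunits in CH against DMSO, the 3 in 2i against Fgf2/Activin and the 1 in 2i against CH.

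The Itga5 ratio was -0.55 in CH against DMSO alone, -0.13 in 2i against Fgf2/Activin alone and -0.41 to -0.27 without samples. That of Itga6 was -0.60 and 0.41 in the pairs alone and -0.16 to 0.0034 without samples, that of Itgav 0.64 and 1.35 in the pairs alone. The Itga9 ratio passed 0.05 with 5 counts added (1.08) and was 0.90 to 1.90 without samples. Values of uncalled subunits changed sign when samples were left out. These were, in CH against DMSO, Itga7 (-0.15 to 0.69) and Itgb4 (-1.01 to 0.47), and in 2i against Fgf2/Activin Itga7 (-0.98 to 0.0792). In 2i against CH they were Itga3 (-0.46 to 0.0695), Itgb4 (-0.0097 to 1.21) and Itgb5 (-0.0790 to 0.13), and in Fgf2/Activin against DMSO Itga1 (-0.21 to 0.70), Itga5 (-0.0566 to 0.58), Itga7 (-0.69 to 0.49), Itga9 (-0.61 to 0.65) and Itgb4 (-0.73 to 0.23). Itgb5 in 2i against CH, 0.0013, was also -0.0101 with at least 10 counts, -6.47e-05 with the block and -0.0077 from 6 samples. Other causes were not tested. With 3 samples per group, low counts limit Itga7, Itga9 and Itga1.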
